A study of Arabidopsis thaliana with 27 samples.

Results

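Well-watered leaves of *35S::AtTOR* plants were compared with well-watered leaves of WT (Col-0) plants, the comparison that asks how leaf transcripts differ under constitutive *AtTOR* expression when water is not limiting. The members were the genes with a mean normalized count of at least 10 in either group, which were 17688 of the 34218 genes in the table. The *35S::AtTOR* plants (35S::TOR in the sample records) carry the *AtTOR* coding sequence behind the constitutive 35S promoter in the Col-0 background, and were selected on phosphinothricin. Both groups were watered so that the soil held about 60% of the water it could hold, and each had 3 samples, here replicates 1, 2 and 3. The age of the well-watered leaves is not given in the sources used here. The other samples of the series were *GC::AtTOR* leaves, in which a guard cell promoter drives *AtTOR*, and leaves of all 3 genotypes after 11 days without water (from 27 to 38 days after germination) and after 4 further days of re-watering, 27 samples in all.

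The study combined several homozygous lines of each construct, and the records do not say which line gave a sample. The study describes them as biological replicates, and the records do not say whether each came from separate plants, so the p-values measure the spread between these samples. RNA was taken from whole leaves, in which fewer cells of a type and less RNA per cell cannot be told apart. TOR is a protein kinase that links nutrients and energy to growth: in plants as in yeast and animals it promotes translation, ribosome production and cell proliferation and holds autophagy back. Abscisic acid (ABA) is the hormone of water deficit, which closes stomata and switches on genes for protective proteins. The light-harvesting complex (LHC) holds the chlorophyll that feeds light energy to the photosystems, and its nuclear genes give some of the most abundant transcripts of a leaf.

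The values are normalized counts, gene read counts divided by a size factor for each sample, and are not corrected for gene length. Recovered reads were 15472545 and 14425012 in *35S::AtTOR* replicates 2 and 3 and 12457648 to 16707106 in WT, and a single read was worth 0.835 to 1.17 normalized counts in the 6 samples. A gene was called when limma gave a Benjamini-Hochberg adjusted p under 0.05 over the 18785 genes tested and a log2 difference above 1 or below -1, that is a fold of more than 2. Calls are those of limma unless edgeR or DESeq2 is named. The gene for TOR itself (AT1G50030) had 12857, 9229 and 14649 normalized counts in *35S::AtTOR*, against 1250.1, 1205 and 1128 in WT, so the labels and the transgene went together in all 6 samples.

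Of the 17688 genes, 226 were higher in *35S::AtTOR* (1.28%) and 262 were lower (1.48%), beside 1.31% higher and 1.44% lower, 2.75% together, over all genes tested. By the adjusted p alone 10.8% of all genes tested passed, and 26.6% had an unadjusted p under 0.05. Counts of list members given below are to be read beside these shares. The median log2 difference of the 17688 genes was -0.0032, and between the 5th and the 95th percentile it ran from -0.76 to 0.79. The called genes had a median of 1.32 when higher and -1.45 when lower, and 42 were more than 4-fold higher and 48 more than 4-fold lower. The samples of the groups did not overlap for 216 of the 226 higher genes and 261 of the 262 lower genes, beside 19.7% (higher) and 21.4% (lower) of all genes tested. The member nearest the minimum mean of 10 stood at 10.0126 (AT3G50390) in its higher group, and the gene just outside at 9.99 (AT2G30505). With samples scaled to equal totals in place of the deposited size factors, the median of all genes tested moved by 0.11, and 378 genes were higher and 186 lower, so that 67.0% of the calls were in the higher direction in place of 46.3%.

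**Figure D1:**
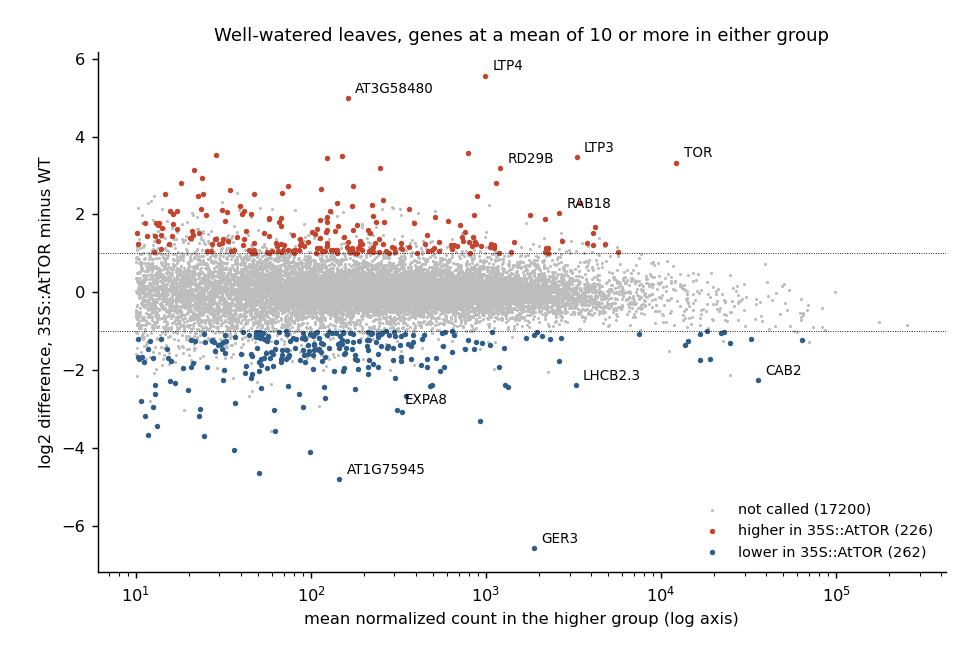
The log2 difference (*35S::AtTOR* minus WT) of each of the 17688 genes is plotted against its mean normalized count in the higher group, on a log axis, with dotted lines at log2 differences of 1 and -1. The 226 called higher genes reach 5.57 (*LTP4*), the 262 called lower genes reach -6.58 (*GER3*), and *TOR* stands at 3.33.

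The WT samples were not alike. Transcripts of *CRA1*, for the seed storage protein cruciferin, had 0, 0 and 0.888 normalized counts in *35S::AtTOR*, against 2.61, 77.1 and 29.5 in WT replicates 1, 2 and 3. *CRU3*, for another cruciferin, was at 0 in all *35S::AtTOR* samples, against 1.74, 87.6 and 61.6 in WT. All 6 seed markers together held 0 to 1.94e-05% of the total in *35S::AtTOR* and 9.38e-05 to 0.00132% in WT, with 4 to 6 of the 6 markers at 0 in each *35S::AtTOR* sample and 0 or 1 of the 6 in each WT sample. *CRA1* and *CRU3* were called lower in *35S::AtTOR* by limma, and a fold is not given because the *35S::AtTOR* samples were at or near 0. In well-watered *GC::AtTOR* the 6 seed markers were as low, at 0 to 1.71e-05% of the total, with 4 to 6 at 0. Among well-watered leaves the WT samples thus stood apart in these transcripts. WT replicate 2 was the highest WT sample for 194 of the 262 lower genes, and the lowest WT sample for 124 of the 226 higher genes. Without WT replicate 2 there were 98 genes higher and 79 lower, and without WT replicate 3 there were 173 and 140. Leaving out *35S::AtTOR* replicate 2 gave 101 and 116, and leaving out its replicate 3 gave 171 and 122. With WT replicate 1 as the only WT sample, a setting chosen after the values had been seen, 12 genes were higher and 4 lower, while 176 of the 226 and 197 of the 262 kept a log2 difference past 1 or -1 in their direction. In that setting none of the ABA-induced, LHC, photosystem, expansin, cell cycle or histone genes described below was called. The part of the seed transcripts in any difference below was not tested.

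Among markers of leaf cell types, the 5 mesophyll markers (none at 0) summed to 1.78 to 1.97% of the total in *35S::AtTOR* and 2.7 to 3.03% in WT, and the 5 phloem markers (none at 0) to 0.0574 to 0.0619% in *35S::AtTOR* and 0.0359 to 0.0380% in WT. Limma and edgeR called none of these genes, beside 2 mesophyll and 3 phloem markers at an unadjusted p under 0.05, and DESeq2 called 1 mesophyll marker lower. The 14 guard cell genes, with 0 or 1 at 0 in each sample, summed to 0.0957 to 0.140% in *35S::AtTOR* and 0.141 to 0.268% in WT, while 9 of the 13 members on this list had a log2 difference above 0 (median 0.30) and 3 passed the adjusted p alone, all higher. Of the 5 root markers 3 or 4 were at 0 in each sample.

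The gene that rose most, *LTP4*, and its neighbour *LTP3* encode lipid transfer proteins, small secreted proteins that bind lipids. *LTP4* (AT5G59310, chr5:23924990-23925957, minus strand) had 1604, 1004 and 364 normalized counts in *35S::AtTOR*, against 12.2, 9.34 and 39.7 in WT (log2 difference 5.57, standard error 0.68, limma adjusted p = 6.63e-05). *LTP3* (AT5G59320, chr5:23928954-23929816, plus strand) had 4224, 3123 and 2544 in *35S::AtTOR*, against 218, 181 and 614 in WT (log2 difference 3.47, standard error 0.42, limma adjusted p = 6.63e-05). Every *35S::AtTOR* sample of both genes stood above every WT sample, and WT replicate 3 was the highest of the WT samples. The genes are close relatives, and how reads were split between them is uncertain. Limma and edgeR called no other gene of the list of 7 lipid transfer proteins, DESeq2 called 3 in all, and the list's median was -0.13 (-0.02 with equal totals). *DAA1* (AT1G64110), which encodes an ATPase of the P-loop family, had 818, 809 and 732 in *35S::AtTOR*, against 62.7, 31.5 and 134 in WT (log2 difference 3.59, standard error 0.43, limma adjusted p = 6.62e-05). All 3 calls held in every alternative tried, also with WT replicate 1 alone.

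Of 19 genes for ABA- and drought-induced proteins, 4 rose and none fell (beside 1.31% of all genes tested called higher), and the median log2 difference was 0.27, with 16 of the 19 above 0. *RD29B* (AT5G52300, chr5:21237021-21239531, plus strand), a classic ABA-responsive gene for a hydrophilic protein, had 1300.3, 1315 and 1012 normalized counts in *35S::AtTOR*, against 87.1, 104 and 244 in WT (log2 difference 3.19, standard error 0.54, limma adjusted p = 0.00154). *RAB18* (AT5G66400, chr5:26518277-26519447, minus strand), a dehydrin gene induced by ABA, had 3629, 2244 and 1988 in *35S::AtTOR*, against 551, 582 and 728 in WT (log2 difference 2.04, standard error 0.48, limma adjusted p = 0.0114). In neither gene did the groups overlap. *LEA4-5* (AT5G06760), for a late embryogenesis abundant protein, had 74.2, 57.6 and 40.8, against 13.1, 15.2 and 15.2 in WT (log2 difference 1.88, standard error 0.58, limma adjusted p = 0.0408). The dehydrin gene *XERO2* (AT3G50970) had 2263, 2299 and 2195, against 1230.0, 966 and 1164 in WT (log2 difference 1.01, standard error 0.22, limma adjusted p = 0.00639). For scale, *RD29B* stood at 12053, 13905 and 23869 in WT leaves under drought, and *RAB18* at 31938, 50115 and 83163, so the well-watered *35S::AtTOR* levels lay between those of well-watered and of drought-treated WT. *LEA4-5* was not called without any 1 replicate, *XERO2* without replicate 2 of either group, and *RAB18* without WT replicate 2. Without WT replicate 2 *RD29B* was the only gene of the 19 that rose (limma adjusted p = 0.0127; range over the alternatives 0.000139 to 0.0519).

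The 250 bases before the annotated start of *RD29B* and *RAB18* are shown because their changes were the largest on that list, with that of *LTP4*, the gene that rose most, and of *LHCB2.3*, an LHC gene that fell and is described further on. The core of the ABA-responsive element, ACGTG on either strand, is in capitals. Windows are from RefSeq TAIR10.1, 5′ to 3′ on the strand of the gene.
*RD29B*, chr5:21236771-21237020, plus strand: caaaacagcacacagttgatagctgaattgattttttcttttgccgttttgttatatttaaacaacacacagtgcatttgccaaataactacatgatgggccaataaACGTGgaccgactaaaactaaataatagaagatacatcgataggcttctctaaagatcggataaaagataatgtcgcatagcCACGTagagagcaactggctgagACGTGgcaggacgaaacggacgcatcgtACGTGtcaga
*RAB18*, chr5:26519448-26519697, minus strand: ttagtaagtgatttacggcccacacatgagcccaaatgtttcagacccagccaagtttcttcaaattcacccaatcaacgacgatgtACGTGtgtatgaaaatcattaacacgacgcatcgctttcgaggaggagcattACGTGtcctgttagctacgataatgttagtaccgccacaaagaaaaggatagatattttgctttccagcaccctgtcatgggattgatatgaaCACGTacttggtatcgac
*LTP4*, chr5:23925958-23926207, minus strand: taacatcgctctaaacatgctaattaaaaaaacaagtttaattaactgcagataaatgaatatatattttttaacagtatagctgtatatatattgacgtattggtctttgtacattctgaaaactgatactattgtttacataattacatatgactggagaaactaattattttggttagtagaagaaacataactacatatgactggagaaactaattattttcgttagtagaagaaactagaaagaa
*LHCB2.3*, chr3:10255656-10255905, plus strand: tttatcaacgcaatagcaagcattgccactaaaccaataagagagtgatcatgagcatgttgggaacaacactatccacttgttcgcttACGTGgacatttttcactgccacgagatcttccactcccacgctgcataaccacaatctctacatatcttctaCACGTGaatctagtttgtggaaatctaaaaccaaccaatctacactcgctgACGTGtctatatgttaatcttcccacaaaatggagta

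The core occurred 4 times before *RD29B*, 3 times before *RAB18* and 4 times before *LHCB2.3*, and was not among the letters of the *LTP4* window, nor of those of *LTP3* and *DAA1*. The CACGTG of the *LHCB2.3* window was counted on each strand, so its matches overlap there. Such a match is a description of the letters and not of a bound site. Over the called genes with a window, 26.9% of the 223 higher genes and 26.8% of the 254 lower genes held the core, beside 23.58% of all 18691 windows. CACGTG, which contains it, was in 9.42% and 8.27%, beside 7.61%. CCGAC, the core of the dehydration-responsive element, was in 12.6% and 12.2%, beside 13.1%. TTGACC, a form of the W-box of WRKY factors, was in 16.1% of the higher and 9.45% of the lower genes, beside 12.03%. AAAATATCT, the evening element of clock-controlled genes, was in 3.14% and 2.76%, beside 2.57%, and the heat shock element GAANNTTC in 9.42% and 8.66%, beside 9.44%. All were searched on both strands.

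**Figure D2:**
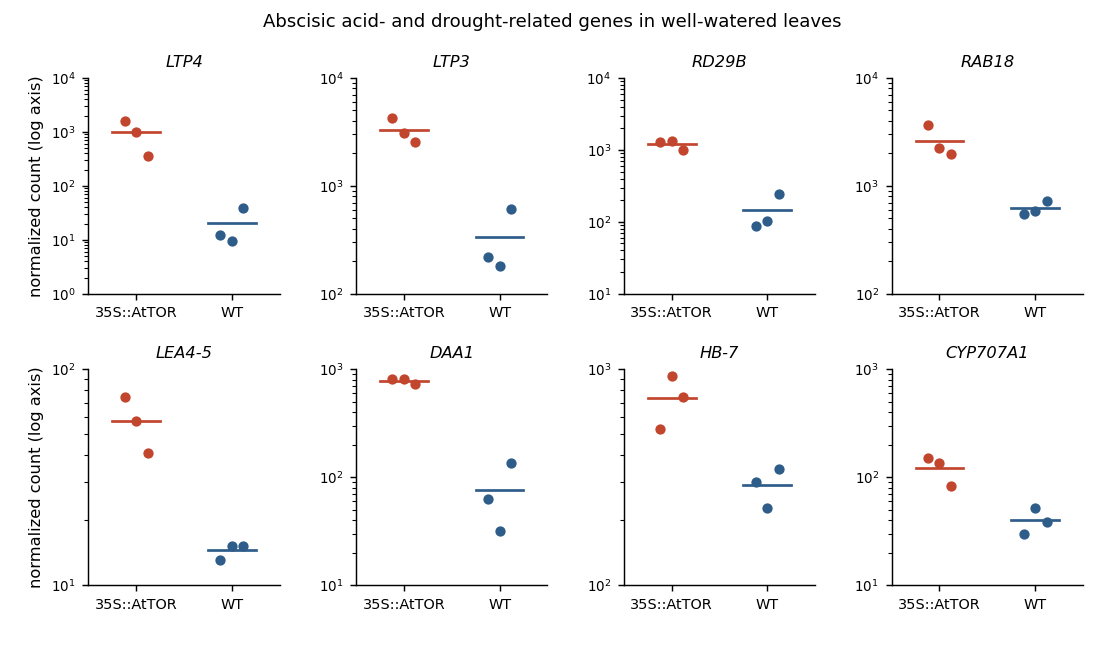
Normalized counts on a log axis of 8 genes in the 3 *35S::AtTOR* samples (left) and the 3 WT samples (right) of well-watered leaves, with a line at each group's mean. Every *35S::AtTOR* point lies above every WT point in each of the 8 panels, by a log2 difference of 5.57 in *LTP4* and 1.32 in *HB-7*.

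Of the genes that make, break or sense ABA few were called. *CYP707A1* (AT4G19230), for an ABA 8′-hydroxylase that breaks the hormone down, had 149.5, 135 and 83.4 normalized counts in *35S::AtTOR*, against 29.6, 51.4 and 38 in WT (log2 difference 1.60, standard error 0.26, limma adjusted p = 0.00109) and was the only called gene of 5 for ABA breakdown and conjugation. It was called in every alternative tried, and edgeR and DESeq2 called 2 of the 5. *BGLU18*, for a glucosidase that frees stored ABA from its sugar conjugate, was the only one that limma called of 7 for ABA synthesis and release, with 2233, 3587 and 2331, against 858, 801 and 1741 in WT (log2 difference 1.32, standard error 0.40, limma adjusted p = 0.0362). It was not called without WT replicate 1 or without replicate 2 of either group or *35S::AtTOR* replicate 3, and edgeR and DESeq2 each called 1 gene of this list lower. The homeodomain factor gene *HB-7* rose alone of 9 ABA transcription factor genes, with 531, 928 and 747, against 299.7, 227 and 346 in WT (log2 difference 1.32, standard error 0.38, limma adjusted p = 0.0307). *HB-7* was not called without any 1 WT replicate or without *35S::AtTOR* replicate 2 or 3 (limma adjusted p = 0.0515 to 0.142; range over the alternatives 0.00571 to 0.425). Limma called none of 7 ABA receptor genes, of 7 genes for clade A PP2C phosphatases, which restrain the signal, or of 9 genes for SnRK2 kinases, which pass it on. At an unadjusted p under 0.05 these were 2, 2 and 3 genes, beside 26.6% of all genes tested. EdgeR called none of them, and DESeq2 called 1 phosphatase gene higher. *GOLS2*, for a galactinol synthase of the raffinose pathway, had 913, 1915 and 1340.3, against 810.1, 432 and 766 in WT (log2 difference 1.04, standard error 0.30, limma adjusted p = 0.0323). In the opposite direction went *CBF3*, for a factor of the cold response, with 222, 384 and 374 in *35S::AtTOR*, against 679, 559 and 682 in WT (log2 difference -1.01, standard error 0.28, limma adjusted p = 0.027). *GOLS2* lost its call without replicate 2 or 3 of either group, and *CBF3* without any 1 WT replicate or *35S::AtTOR* replicate 1 and with edgeR and DESeq2 (range of the limma adjusted p over the alternatives up to 0.572 and 0.335).

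Transcripts for light capture were lower. All 20 LHC genes had a log2 difference below 0, with a median of -0.92, and 7 of them fell (beside 1.44% of all genes tested), 12 passed the adjusted p alone, and none rose. The 21 LHC loci, of which 1 was at 0 in every sample, together held 3.47 to 4.52% of all normalized counts in *35S::AtTOR* and 6.33 to 7.61% in WT. The largest fall was that of *LHCB2.3* (AT3G27690), for an antenna protein of photosystem II, with 819, 578 and 443 normalized counts in *35S::AtTOR*, against 2153, 4357 and 3227 in WT (log2 difference -2.39, standard error 0.60, limma adjusted p = 0.0151). *CAB2* (AT1G29920), for the main chlorophyll a/b-binding protein, had 9597, 7219.9 and 5001, against 21475, 51372 and 34119 in WT (log2 difference -2.25, standard error 0.52, limma adjusted p = 0.00944). In both genes the groups were apart, *35S::AtTOR* replicate 3 was the lowest sample and WT replicate 2 the highest.

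*LHCB2.1* had 7265, 5854 and 4434 in *35S::AtTOR*, against 14785, 23664 and 18710.1 in WT (log2 difference -1.71, standard error 0.23, limma adjusted p = 0.000206), and *LHCB2.2* had 6078, 4695 and 4071, against 12934, 20865 and 16242 (log2 difference -1.75, standard error 0.37, limma adjusted p = 0.00616). *LHCB3*, *LHCB4.2* and *LHCB6*, for further antenna proteins of photosystem II, had log2 differences of -1.21, -1.03 and -1.20 (limma adjusted p = 0.0248, 0.014 and 0.00422). *CAB1*, a near copy of *CAB2*, had 175295, 136155 and 123396, against 242618, 271349 and 250699 in WT, but did not pass the test (log2 difference -0.83, standard error 0.39, limma adjusted p = 0.172). *CAB1*, *CAB2* and *CAB3*, and likewise *LHCB2.1* and *LHCB2.2*, are near-identical copies, between which the counting could split reads. No LHC gene of photosystem I was called. Without WT replicate 2 only 3 LHC genes fell, and without *35S::AtTOR* replicate 2 or 3 only 4, while edgeR gave 8 and DESeq2 9. The mesophyll markers given above were lower alongside, and their part in this difference was not tested.

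Of 22 genes for photosystem subunits, all had a log2 difference below 0 (median -0.67), 13 fell by the adjusted p alone and 2 by the call. *PSAN* had 6822, 4706 and 4606 normalized counts in *35S::AtTOR*, against 10458, 17398 and 13480.4 in WT (log2 difference -1.35, standard error 0.29, limma adjusted p = 0.00705), and *PSAK* had 13082, 9748 and 9201, against 19962, 24967 and 21199 (log2 difference -1.06, standard error 0.19, limma adjusted p = 0.00207). Both encode small subunits of photosystem I. Without WT replicate 2 neither was called, without *35S::AtTOR* replicate 2 or 3 only *PSAN* was, and edgeR and DESeq2 called 4. All 18 genes of Rubisco and the Calvin cycle, which fix CO2, were below 0 (median -0.44) and none was called by limma or edgeR, beside 7 at an unadjusted p under 0.05 and 1 lower by DESeq2. With samples scaled to equal totals the medians were -0.81 for the LHC, -0.55 for the photosystems and -0.32 for carbon fixation.

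Chlorophyll synthesis genes fell in 3 of 21 cases, with a median of -0.43. *GUN5* (AT5G13630), for the subunit of magnesium chelatase that commits the pathway to chlorophyll, had 6360.3, 6050.2 and 5189.8 in *35S::AtTOR*, against 11478, 17730.5 and 13338 in WT (log2 difference -1.25, standard error 0.25, limma adjusted p = 0.00369). *PORB*, for a light-dependent protochlorophyllide oxidoreductase, had 10341, 8732 and 8011, against 15104, 21849 and 17644 (log2 difference -1.0, standard error 0.25, limma adjusted p = 0.0136), and *PORA*, for another enzyme of that kind, had few reads, with 3.01, 6.68 and 2.66, against 14.8, 21 and 11.8 (log2 difference -1.77, standard error 0.53, limma adjusted p = 0.0361). *PORA* kept its call without *35S::AtTOR* replicate 2 alone among the 6 replicates, *PORB* lost it without replicate 2 of either group or *35S::AtTOR* replicate 3, and *GUN5* kept it without any 1 of them. Of 11 genes for chlorophyll breakdown only *NYE2*, a stay-green gene, rose, with 61.2, 169 and 157 in *35S::AtTOR*, against 39.2, 12.8 and 38 in WT (log2 difference 2.09, standard error 0.55, limma adjusted p = 0.0207). It was not called without replicate 2 of either group or *35S::AtTOR* replicate 3 (range of the limma adjusted p over the alternatives up to 0.474).

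**Figure D3:**
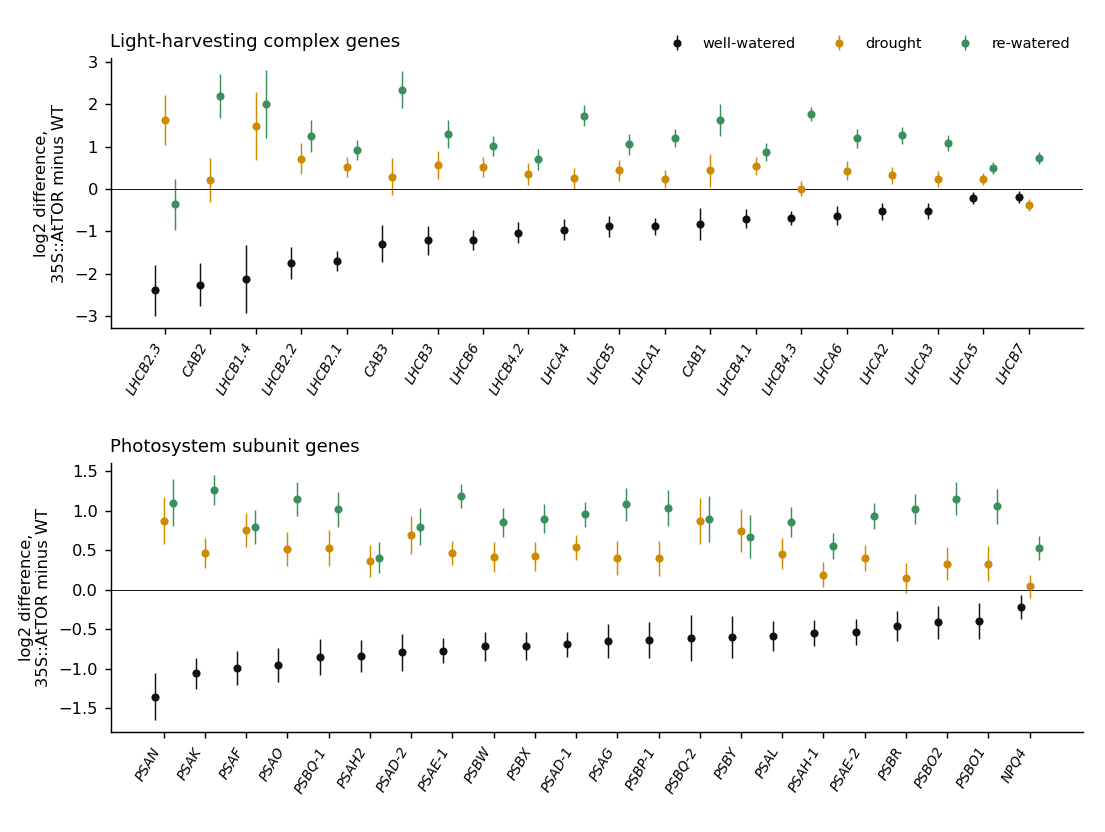
Log2 differences (*35S::AtTOR* minus WT) of the 20 LHC genes and 22 photosystem genes in well-watered, drought and re-watered leaves, with bars of 1 standard error from limma. The well-watered points all lie below 0, from -2.39 (*LHCB2.3*) to -0.18 in the LHC, while the medians were 0.39 under drought and 1.19 after re-watering.

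Genes for growth of the cell wall went both ways. Of 16 genes of the expansin family, whose proteins loosen the wall, 5 fell and 3 rose (beside 1.44% and 1.31% of all genes tested). All that fell were alpha-expansins, the class known to extend walls. *EXPA8* (AT2G40610) had 37.1, 28.4 and 45.3 normalized counts in *35S::AtTOR*, against 422, 243 and 267 in WT (log2 difference -3.02, standard error 0.55, limma adjusted p = 0.00215), and *EXPA3* had 52.2, 28.4 and 22.2, against 147, 162 and 97.9 (log2 difference -2.02, standard error 0.45, limma adjusted p = 0.00775). *EXPA1*, *EXPA10* and *EXPA11* had log2 differences of -1.28, -2.20 and -1.44 (limma adjusted p = 0.00464, 0.0104 and 0.0409). The 3 that rose were expansin-like genes. *EXLA1* had 921, 668 and 241, against 78.4, 259 and 155 in WT (log2 difference 1.84, standard error 0.46, limma adjusted p = 0.0151). Its *35S::AtTOR* replicate 3 lay below WT replicate 2, so the groups overlapped. *EXLA3* had 40.1, 24.2 and 39.1, against 1.74, 9.34 and 5.06 (log2 difference 2.64, standard error 0.64, limma adjusted p = 0.0135), and *EXLB1* had 279, 181 and 222, against 82.8, 117 and 101 (log2 difference 1.16, standard error 0.36, limma adjusted p = 0.0418). With 1 replicate left out at a time 3 or 4 of the alpha-expansins and 0 to 2 of the expansin-like genes were called, 0 without WT replicate 1 and 1 without any *35S::AtTOR* replicate.

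Among 11 genes for xyloglucan hydrolases, which cut and rejoin wall polymers, *XTH24* rose, with 271, 403 and 408 in *35S::AtTOR*, against 84.5, 72.4 and 84.4 in WT (log2 difference 2.13, standard error 0.60, limma adjusted p = 0.0285), and *XTH6* fell, with 125, 69.3 and 54.1, against 132, 449.6 and 301 (log2 difference -1.73, standard error 0.49, limma adjusted p = 0.027). *XTH6* was not called without replicate 2 or 3 of either group, nor *XTH24* without these or WT replicate 1 (range of the limma adjusted p over the alternatives up to 0.733 and 0.42). *GA2OX6* (AT1G02400), for an enzyme that inactivates the growth hormone gibberellin, was the only gene that limma called of 17 for that hormone and rose, with 84.3, 78.5 and 40.8, against 12.2, 3.5 and 22.8 in WT (log2 difference 2.55, standard error 0.63, limma adjusted p = 0.0137). It was not called by edgeR, which instead called another 1 higher and 1 lower, while DESeq2 called 2 higher and 1 lower. It was also not called without replicate 2 of either group (limma adjusted p = 0.109 and 0.0611; range over the alternatives up to 0.282).

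Transcripts used in DNA replication were lower too. All 15 cell cycle genes measured had a log2 difference below 0 (median -0.69), and 3 fell (beside 1.44% of all genes tested). These were *TSO2* (AT3G27060), for a subunit of ribonucleotide reductase, which makes the building blocks of DNA, and *PCNA1* and *PCNA2*, for the sliding clamp of the replication fork. *TSO2* had 380.3, 339.8 and 226 in *35S::AtTOR*, against 716, 1049 and 794 in WT (log2 difference -1.45, standard error 0.32, limma adjusted p = 0.00757), *PCNA1* had 99.3, 61 and 44.4, against 107, 224 and 151 (log2 difference -1.24, standard error 0.34, limma adjusted p = 0.0256), and *PCNA2* had 122, 133 and 74.6, against 191, 280.3 and 199.98 (log2 difference -1.04, standard error 0.25, limma adjusted p = 0.012). WT replicate 2 was the highest sample of all 3 genes, and without it none of the 15 was called. Without *35S::AtTOR* replicate 3 only *TSO2* was.

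Histone genes were picked by product name after their values had been seen and are therefore given as a description. They numbered 39, with 16 lower and 1 higher (beside 1.44% and 1.31% of all genes tested) and a median of -0.81. Those that were lower included genes for H4 (*HIS4*, 149.5, 144 and 125 in *35S::AtTOR*, against 290.1, 453 and 329 in WT), for H2A (*HTA6*, 156, 133 and 65.7, against 297, 579 and 395) and for the centromeric H3 (*HTR12*, 13, 14.2 and 5.33, against 26.1, 43.2 and 27.8). The gene that was higher was *HIS1-3*, for a linker histone known to be induced by drought and ABA, with 561, 888 and 1105, against 259.6, 109.8 and 306 in WT (log2 difference 1.99, standard error 0.38). Many histone genes are near-identical, so single values are uncertain. Without WT replicate 2 there were 4 lower, without WT replicate 3 there were 7, and without *35S::AtTOR* replicate 2 or 3 there were 9 and 5.

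**Figure D4:**
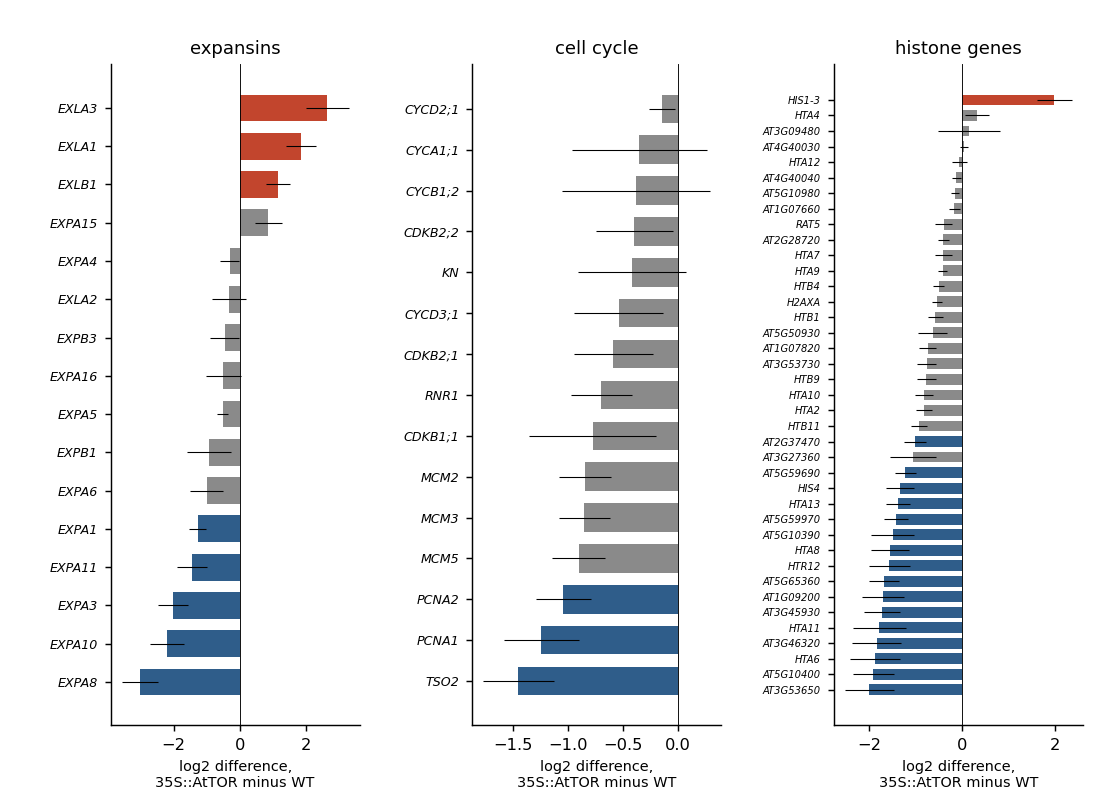
Log2 differences (*35S::AtTOR* minus WT) of 16 expansin, 15 cell cycle and 39 histone genes in well-watered leaves, with bars of 1 standard error from limma, and called genes in red (higher) and blue (lower). They run from -3.02 (*EXPA8*) to 2.64 (*EXLA3*) in the expansins, from -1.45 (*TSO2*) to -0.14 in the cell cycle, and from -1.99 to 1.99 (*HIS1-3*) in the histones.

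Of 15 genes for TOR complexes and their targets *TOR* was the only call. None of 15 genes for cytosolic ribosomal proteins was called (median -0.15, 2 at an unadjusted p under 0.05), nor any of 17 for ribosome biogenesis (median 0.27, 9 at an unadjusted p under 0.05) or of 16 for autophagy (median -0.02, 0.09 with equal totals, 5 at an unadjusted p under 0.05), by limma, edgeR or DESeq2. The 17 genes for ribosome biogenesis were all above 0 and 3 passed the adjusted p alone, with the highest log2 difference at 0.53. Of 23 genes that mark low energy and the kinase SnRK1, which opposes TOR, 2 rose (1 with edgeR and 3 with DESeq2). *BCAT2*, for a transaminase of branched-chain amino acids, had 16.1, 47.6 and 57.7, against 7.84, 3.5 and 17.7 in WT (log2 difference 2.01, standard error 0.61, limma adjusted p = 0.0383), and its groups overlapped. *TPS9*, of the trehalose phosphate synthase family, had 182, 144 and 192, against 64.5, 109.8 and 76.8 (log2 difference 1.06, standard error 0.27, limma adjusted p = 0.0178). Neither was called without WT replicate 1 or *35S::AtTOR* replicate 3, nor *BCAT2* without replicate 2 of either group, nor *TPS9* without WT replicate 3.

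Few genes were called on the lists for hormones and defence. *CYP94B3* (AT3G48520), for an enzyme that inactivates jasmonoyl-isoleucine, had 205, 195 and 49.7 normalized counts in *35S::AtTOR*, against 12.2, 9.34 and 9.28 in WT (log2 difference 3.5, standard error 0.68, limma adjusted p = 0.00321), alone of 15 genes for jasmonate synthesis and turnover. Of 12 genes of jasmonate-induced defence, the defensin gene *PDF1.2* fell, with 2.01, 9.18 and 1.78, against 107, 21 and 58.2 (log2 difference -3.57, standard error 0.88, limma adjusted p = 0.0141), and *MBP1*, for a myrosinase-binding protein, rose, with 409, 876 and 839, against 139, 178 and 327 (log2 difference 1.74, standard error 0.38, limma adjusted p = 0.00746). *PDF1.2* was not called without WT replicate 1 or *35S::AtTOR* replicate 3. Limma called none of 21 genes of salicylic acid defence, of 11 JAZ repressor genes or of 24 for glucosinolate synthesis, with 0, 0 and 8 at an unadjusted p under 0.05, while edgeR and DESeq2 each called 1 defence and 1 glucosinolate gene higher. *WRKY53*, for a transcription factor of leaf senescence, had 3971, 4278 and 2130.2, against 828, 537 and 674 in WT (log2 difference 2.3, standard error 0.67, limma adjusted p = 0.0323), alone of 11 senescence genes, and *ORE1*, for a NAC factor of senescence, had 20.1, 68.5 and 134, against 7.84, 2.34 and 21.9 (log2 difference 2.73, standard error 0.85, limma adjusted p = 0.0434), alone of 12 stress NAC genes by limma, where edgeR called 2 and DESeq2 3. *WRKY53* kept its call without *35S::AtTOR* replicate 3 and lost it without any other replicate. *ORE1* overlapped between the groups, and was not called without WT replicate 1, replicate 2 of either group or *35S::AtTOR* replicate 3 (range of the limma adjusted p over the alternatives up to 0.406).

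Single genes rose or fell on the lists for ions, sugars and heat. *CSD2* (AT2G28190), for the copper/zinc superoxide dismutase of the chloroplast, fell to 745, 650.4 and 920.4 in *35S::AtTOR*, against 2197, 3078 and 2533 in WT (log2 difference -1.75, standard error 0.33, limma adjusted p = 0.0025), alone of 14 antioxidant genes by limma and edgeR, while DESeq2 also called 1 higher. It stayed called with any 1 replicate left out. *PS2*, for a pyrophosphatase induced by phosphate starvation, had 70.2, 49.3 and 22.2, against 6.97, 8.17 and 5.06 (log2 difference 2.52, standard error 0.49, limma adjusted p = 0.00328), and *PHO1;H1*, for a phosphate exporter, had 96.3, 186 and 107, against 78.4, 44.4 and 56.5 (log2 difference 1.08, standard error 0.34, limma adjusted p = 0.0471) of 11 genes for phosphate starvation. *PHO1;H1* was not called without replicate 2 or 3 of either group. *STP13*, for a hexose transporter, *HSP70*, for a chaperone, *TCH4*, a touch gene, and *BOA*, of the evening clock, rose, with log2 differences of 1.03, 1.27, 1.52 and 1.01 (limma adjusted p = 0.0294, 0.0277, 0.0472 and 6.62e-05). *HSP18.2* and the cytokinin oxidase gene *CKX4* fell, with -1.21 and -1.44 (limma adjusted p = 0.0318 and 0.0407). Each of these 6 lost its call without at least 1 replicate, *STP13* and *HSP70* without any 1 of the 6, and *TCH4* overlapped between the groups. EdgeR called no gene higher on the touch and evening clock lists and none lower on the cytokinin list, nor did DESeq2. In all, 35 of the 65 lists had no member called by limma. Of 11 of the genes that the study names in its RNA-seq text, limma and edgeR each called 1 higher and DESeq2 called 2. None of the 11 was called lower by any of these, and 5 had an unadjusted p under 0.05 (beside 26.6% of all genes tested). Their lowest log2 difference was -1.16. The study names part of its genes for *GC::AtTOR* or for drought, so the 11 are not all its claims about this comparison. Its results give *CYP707A1*, called higher above, as upregulated in well-watered *35S::AtTOR*.

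Outside the lists stood genes that differed in every treatment. *AT3G58480* (chr3:21629072-21632116, plus strand), annotated as a calmodulin-binding family protein, had 203, 124 and 161 in *35S::AtTOR*, against 6.1, 5.84 and 1.69 in WT (log2 difference 4.98, standard error 0.51, limma adjusted p = 1.3e-05). It had 0.965, 2.39 and 7.67 in well-watered *GC::AtTOR*, and it was again higher than in WT in drought (293, 338 and 189.8 in *35S::AtTOR*, against 1.87, 2.67 and 6.89 in WT) and after re-watering (649, 1469 and 897, against 1.59, 3.29 and 1.7). The gene for an uncharacterized protein *AT1G75945* (chr1:28515245-28515916, minus strand) went the other way, with 1, 18.4 and 2.66 in *35S::AtTOR*, against 145, 120.3 and 169.6 in WT (log2 difference -4.79, standard error 0.82, limma adjusted p = 0.00157), and was low in *GC::AtTOR* too (1.93, 2.39 and 4.38). These and the protein kinase gene *AT1G66880* were, with *TOR*, the 4 members called in the same direction in all 3 water treatments. *AT1G66880* was not called in well-watered leaves by edgeR, without any 1 WT replicate or without *35S::AtTOR* replicate 1 or 2 (range of the limma adjusted p over the alternatives 0.0108 to 0.399), and *AT1G75945* was not with WT replicate 1 alone.

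When the called genes were limited to those whose higher mean reached 100 and whose groups did not overlap, the 15 that rose most also included genes for a WNK kinase (*WNK9*, 109, 126 and 137 in *35S::AtTOR*, against 6.1, 3.5 and 46.4 in WT), a glutamate receptor-like channel (*GLR2.8*, 175, 503 and 65.7, against 35.7, 15.2 and 11.8) and an ankyrin repeat protein (*AT5G15500*, 698, 1427 and 1287, against 234, 42 and 361). *SRO5*, of the family of RCD1, had 159, 129 and 54.1, against 13.1, 23.4 and 12.7, and *ZF1*, for a zinc-finger protein, had 1224, 947 and 477, against 145, 142 and 154. *AT1G15670*, for a kelch repeat protein, had 325, 245 and 203, against 53.1, 43.2 and 48.9, and the uncharacterized *AT1G54575* had 95.3, 269 and 154, against 20, 14 and 43.9. Their log2 differences ran from 2.37 to 3.44 (limma adjusted p = 0.00169 to 0.038). *AT5G15500* and *AT1G15670* kept the call with any 1 replicate left out, *SRO5* lost it without *35S::AtTOR* replicate 2, *AT1G54575* and *GLR2.8* without replicate 2 of either group, *GLR2.8* also without WT replicate 3, *ZF1* without any 1, and *WNK9* without any but WT replicate 3. Of those 15 genes 9 stayed called with any 1 replicate left out.

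The 15 genes that fell most were taken with the same limits on the mean and the overlap. *GER3* (AT5G20630, chr5:6975029-6976036, minus strand), for a germin-like protein of the wall, had 10, 15 and 24 in *35S::AtTOR*, against 660.3, 3149.5 and 1843 in WT (log2 difference -6.58, standard error 1.49, limma adjusted p = 0.00918). Its samples also differed widely within *GC::AtTOR* (161, 156 and 6692), and it was not called without WT replicate 2 (limma adjusted p = 0.0551; range over the alternatives 0.00169 to 0.384). Genes of the legume lectin family were among them: *AT3G16530* had 11, 32.6 and 10.7 in *35S::AtTOR*, against 197, 67.7 and 94.5 in WT, and *AT3G15356* had 20.1, 33.4 and 42.6, against 234, 139 and 165. The thionin gene *AT1G66100* had 24.1, 19.2 and 19.5, against 101, 141 and 111, and the defensin-like gene *AT3G05730* had 37.1, 35.9 and 32.8, against 185, 480.0 and 325. *AT1G31690*, for a copper amine oxidase, had 136, 96 and 44.4, against 482, 1413 and 869.9, and *AT4G28780*, for a GDSL lipase, had 73.2, 50.1 and 39.9, against 229, 461 and 361. Log2 differences were -2.43 to -3.31 among the 6 genes other than *GER3* (limma adjusted p = 0.00475 to 0.0326). *AT1G31690* was not called without WT replicate 2, *AT1G66100* without replicate 2 of either group, and *AT4G28780* without replicate 2 or 3 of either group. Of those 15 genes 5 stayed called with any 1 replicate left out.

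The same genotype difference was measured in drought and re-watered leaves, in samples that share none with the well-watered ones. According to the study, WT plants were killed by drought or failed to recover on re-watering, while most transgenic plants survived. The state of the WT plants sampled for RNA is not given in the sources used here. Its part in the drought and re-watered differences below was not tested. Of the 226 genes higher in well-watered *35S::AtTOR*, 118 were also above 0 under drought (52.2%, beside 49.7% of all genes tested with the same sign in both) and 93 after re-watering (41.2%, beside 40.4%). Called in the same direction were 12 under drought (5.31%, beside 1.25% of all genes tested) and 21 after re-watering (9.29%, beside 5.15%), and in the opposite direction 5 (2.21%, beside 0.298%) and 40 (17.7%, beside 4.85%). Of the 262 lower genes, 108 were below 0 under drought (41.2%) and 59 after re-watering (22.5%), again beside 49.7% and 40.4%. Called lower there were 3 (1.15%, beside 0.298%) and 12 (4.58%, beside 4.85%), and called higher 10 (3.82%, beside 1.25%) and 72 (27.5%, beside 5.15%). The median log2 difference of the 262 genes was 0.12 under drought and 0.59 after re-watering, and that of the 226 genes was 0.06 and -0.20. Re-watered *35S::AtTOR* replicate 1 held 2739872 reads, against 12053300 and 12945632 in the other replicates of its group, and without it 37 of the 226 and 72 of the 262 genes were called in the opposite direction after re-watering, and 3 of the 226 under drought.

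**Figure D5:**
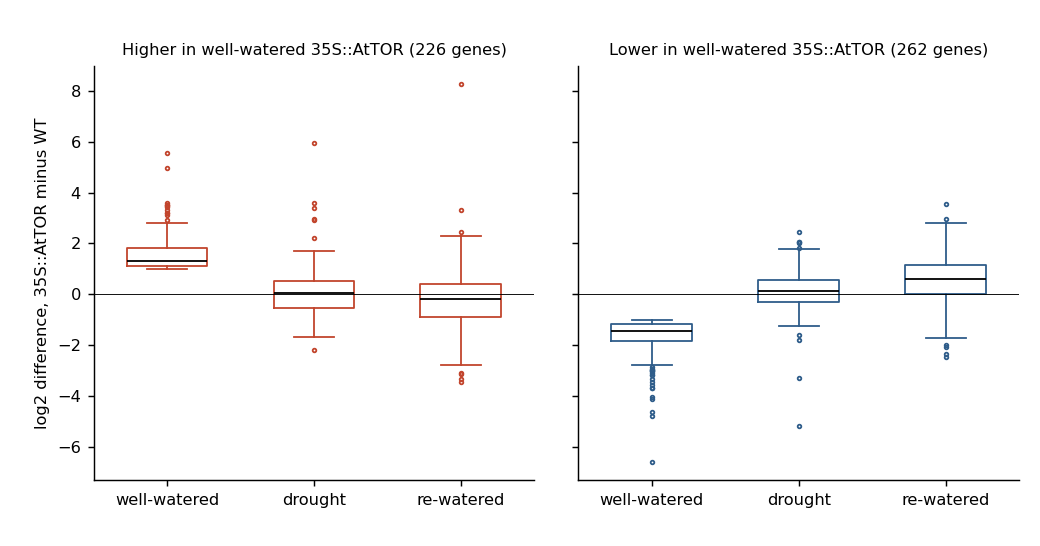
Boxes show the log2 difference (*35S::AtTOR* minus WT) in well-watered, drought and re-watered leaves of the 226 genes called higher (left) and the 262 called lower (right) in well-watered leaves, with the median, the quartiles, whiskers to 1.5 interquartile ranges and single genes beyond. The medians of the lower genes are -1.45, 0.12 and 0.59, and those of the higher genes 1.32, 0.06 and -0.20.

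The photosynthesis genes were among those with the opposite sign: of the 20 LHC genes none was called under drought (median 0.39) and after re-watering 13 were called higher in *35S::AtTOR* (median 1.19), as were 10 of the 22 photosystem genes (median 0.95). Over all genes tested 5.15% were called higher after re-watering. By the limma interaction term, which shares the well-watered samples and is given as a description, the genotype difference was lower than in well-watered leaves for 82 of the 226 genes under drought (beside 1.37% of all genes tested) and 149 after re-watering (7.63%). It was higher for 114 of the 262 genes under drought (beside 2.09%) and 205 after re-watering (7.82%). *EXPA8* was higher under drought (23.9, 3.91 and 4.09 in *35S::AtTOR*, against 0.936, 0 and 0.984 in WT) and after re-watering (422, 85.3 and 335, against 19.1, 17.3 and 20.4), with log2 differences of 2.45 and 3.53 (limma adjusted p = 0.0176 and 3.61e-05). Of the ABA-responsive genes, neither *RD29B* nor *LTP4* passed the test under drought. *RD29B* had 6084, 5068 and 15593, against 12053, 13905 and 23869 in WT (log2 difference -1.02, standard error 0.54, limma adjusted p = 0.345), and *LTP4* had 483, 586 and 2024, against 1448, 1287 and 1855 (log2 difference -0.86, standard error 0.68, limma adjusted p = 0.555). After re-watering 2 of the 19 genes for ABA- and drought-induced proteins were called higher and 7 lower, beside 5.15% and 4.85% of all genes tested. *RAB18* was among those higher in *35S::AtTOR* (277, 159 and 123, against 69.3, 47.8 and 82.5 in WT, log2 difference 1.42, standard error 0.48, limma adjusted p = 0.0226), and *XERO2* among those lower (78.5, 70.5 and 64, against 736, 1046 and 631, log2 difference -3.46, standard error 0.22, limma adjusted p = 2.82e-10).

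In WT alone, where drought leaves were compared with re-watered leaves, 57 of the 226 higher genes were higher under drought (25.2%, beside 12.5% of all genes tested) and 67 were lower (29.6%, beside 15.4%). Of the 262 lower genes 61 were higher under drought (23.3%) and 58 lower (22.1%), so both sets held genes that WT moved in either direction. Whether the re-watered WT leaves came from recovering plants is not known, so this comparison is not one of drought with recovery.

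*GC::AtTOR* leaves were compared with the same WT samples, so the values stand side by side only. The 226 higher genes had a median log2 difference from WT of 0.71 in *GC::AtTOR*, and the 262 lower genes of -0.41. Between the lines, 46 of the 226 genes were called higher in *35S::AtTOR* than in *GC::AtTOR* (20.4%, beside 0.633% of all genes tested) and 3 lower, and 80 of the 262 were called lower (30.5%, beside 1.86%). These counts share the *35S::AtTOR* samples that gave the sets. *RD29B*, *RAB18*, *LTP3*, *LTP4* and *DAA1* were among those higher in *35S::AtTOR* than in *GC::AtTOR*, by log2 differences of 3.05, 2.21, 3.10, 4.71 and 3.22 (limma adjusted p = 0.00175, 0.008, 0.000168, 0.000255 and 0.00015). *LHCB2.1* was lower than in *GC::AtTOR* by the same test (log2 difference -1.29, standard error 0.23, limma adjusted p = 0.00205), as were 3 other LHC genes. *WRKY53*, *SRO5* and *XTH24* averaged 3459.7, 114 and 361 in *35S::AtTOR* and 3157, 111 and 392 in *GC::AtTOR*, and their differences of 0.17 ± 0.67, 0.01 ± 0.62 and -0.14 ± 0.60 (log2, standard error) did not pass the test.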

How the data were processed

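Leaf RNA of 27 samples (3 genotypes, 3 water treatments, 3 replicates each) was made into TruSeq libraries and sequenced in pairs of reads. According to the labels and the methods of the study, the authors used Trimmomatic for trimming, STAR for alignment to TAIR10, Salmon for quantification and DESeq2 for normalization (versions not given in the sources used here). The deposited values are a signal made by the authors, gene counts divided by a size factor for each sample. Samples were grouped by genotype and treatment as labelled.

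Tests used limma 3.58.1 in R 4.3.3 (linear model over all 27 samples with 1 mean for each of 9 groups, moderated with a mean-dependent trend, 18 residual degrees of freedom) on log2(value + 1), for the 18785 genes whose mean reached 10 in any group. P-values were adjusted by Benjamini-Hochberg over those genes, and a call needed an adjusted p under 0.05 and a log2 difference past 1. Fold changes are on the log2(value + 1) scale, which understates the change of low genes. In every sample 100% of values lay within 0.1 reads of a whole multiple of the smallest value. This smallest value was taken as 1 read in 26 of the 27 samples. In well-watered *35S::AtTOR* replicate 1, where it was 1.003, a check of the unit did not accept it. On the 26 samples edgeR 4.0.16 and DESeq2 1.42.0 were run as alternatives. The test was tried on simulated data of the same 18785 genes, where 20, 47, 49 and 49 of 50 genes changed 2-, 3-, 4- and 8-fold were called, with 2 false calls.

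The rule for named genes took *TOR*, genes named by the study, members of 65 lists (chiefly those called) and the 15 highest and 15 lowest called genes whose groups did not overlap and whose higher mean was at least 100. *AT1G66880*, the single histone and organelle loci and the genes set beside *GC::AtTOR* were picked after their values were seen. The lists held 892 entries found in the table, with 40 more not found. The members and lists were chosen with earlier results of these data known, 3 lists (histones and organelle loci) after their values were seen. Other alternatives were the pseudocount, the filter, the scaling, the samples in the fit, a replicate block, single replicates left out and stricter or looser thresholds. Using WT replicate 1 alone as the WT group was chosen after seeing the data. Names, positions and upstream windows came from RefSeq TAIR10.1 (32548 of 34218 loci matched), while the authors used TAIR10.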

Additional observations from a re-analysis of the deposited data

Results flagged for a closer look

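Of 41 named genes whose genotype difference (*35S::AtTOR* minus WT) was compared between treatments by the limma interaction term, 35 had a difference in drought or re-watered leaves that was not that of well-watered leaves, beside 3.45% of all genes tested under drought and 15.5% after re-watering. The genes were chosen by the same well-watered samples that enter the interaction, so the values are a description. Values are the log2 genotype difference of the other treatment minus that of well-watered leaves. Each is from the treatment with the lower adjusted p among those in which it was called. A gene given under 1 treatment may thus differ in the other too, and by a larger value, as *LTP3* did under drought.

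For genes higher in well-watered *35S::AtTOR* the difference was smaller or turned round under drought by -6.43 (*LTP4*), -4.21 (*RD29B*), -3.35 (*AT5G15500*), -3.34 (*RAB18*) and -3.28 (*LEA4-5*). After re-watering it was so by -5.65 (*CYP94B3*), -5.24 (*SRO5*), -4.47 (*XERO2*), -3.31 (*LTP3*), -3.15 (*DAA1*), -2.94 (*AT1G15670* and *GLR2.8*), -2.92 (*AT1G54575*) and -2.74 (*CYP707A1*). *AT3G58480* was the exception among these, with a genotype difference that was larger after re-watering by 3.27.

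For genes lower in well-watered *35S::AtTOR* it moved upward. Under drought the values were 4.21 (*AT1G66100*), 4.02 (*LHCB2.3*) and 3.84 (*AT3G16530*). After re-watering the antenna genes had 4.44 (*CAB2*), 3.00 (*LHCB2.2*), 2.62 (*LHCB2.1*), 2.5 (*LHCB3*), 2.22 (*LHCB6*) and 1.73 (*LHCB4.2*), and the photosystem genes 2.46 (*PSAN*) and 2.32 (*PSAK*). The others were 7.65 (*GER3*), 6.55 (*EXPA8*), 4.55 (*AT1G31690*), 4.1 (*AT3G05730*) and 3.54 (*AT4G28780*), with 2.93 (*ATCG00950*), 2.91 (*ATCG01210*), 2.85 (*ATCG00920*) and 2.65 (*ATCG01180*) at chloroplast-encoded loci.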

How the results depend on the processing

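In no setting did a called gene named in the text change sign. The 226 genes called higher became 343 in the 6 samples of the groups alone, 378 with equal totals, 968 with no floor on the fold, 87 at an adjusted p under 0.01 and 12 with WT replicate 1 alone, and 98 to 225 with a replicate left out. The 262 lower genes became 1025 with no floor, 92 at an adjusted p under 0.01 and 4 with WT replicate 1 alone, and 79 to 273 with a replicate left out. The 488 calls in either direction became 1993, 179 and 16 in the same settings, and 177 to 498 with a replicate left out (177 without WT replicate 2, 217 without *35S::AtTOR* replicate 2, 293 without *35S::AtTOR* replicate 3 and 313 without WT replicate 3). With WT replicate 1 alone the lone sample is assumed to vary like the other groups. DESeq2 gave 312 higher and 354 lower genes and edgeR 278 and 290, both without *35S::AtTOR* replicate 1. The 5 higher genes called in the opposite direction in drought leaves were 8 with equal totals and 3 without re-watered *35S::AtTOR* replicate 1, and the 40 in re-watered leaves were 61 with equal totals.

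The replicate numbers are shared by the groups, and deviations of same-numbered samples from their group means had correlations of -0.28, -0.15 and 0.05. Pairs with different numbers ran from -0.21 to 0.36. With 3 samples a group these values cannot show or exclude a shared batch. A fit with the replicate block gave 234 higher and 256 lower genes (490) in 27 samples, and 227 and 241 (468) in the 6 samples. In other groups the same replicate number stood for other library numbers. The block over 27 samples thus joined unlike library numbers and does not check a batch shared by library number.

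Of 79 called genes named, 6 kept their call in every setting, and 43 in every setting other than a stricter p, a left-out replicate or WT replicate 1 alone. Over all settings 394 of 1813 values lost the call. A 2-fold change was often missed in the simulation. That change lies exactly at the fold limit of a call, so the misses do not measure the depth or the number of samples. A gene that was not called may still differ.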

Other observations

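The loci encoded in the chloroplast, picked after their values were seen, numbered 58 members, with a median log2 difference of -0.70. Of these 8 were called lower (beside 1.44% of all genes tested) and none higher. All chloroplast-encoded loci of the table together held 0.0336 ± 0.0066% of all normalized counts in *35S::AtTOR* and 0.0678 ± 0.0107% in WT (SD, n = 3 each, exact permutation p = 0.1, two-sided, the smallest that 3 against 3 allows). The loci were picked after their values were seen, so this p is a description and gives no support. Well-watered *GC::AtTOR* samples held 0.0373 to 0.0430%, and the median log2 difference of the 58 in *GC::AtTOR* against WT was -0.51. WT samples held 0.0256 to 0.0372% under drought and 0.0304 to 0.0524% after re-watering. The loci that differed most were *ATCG01180*, with 236, 185 and 309 normalized counts in *35S::AtTOR*, against 1207, 1857 and 959 in WT, and *ATCG01210*, with 97.3, 64.3 and 109, against 435, 600.2 and 399. *ATCG00920* had 98.3, 66 and 121, against 444, 608 and 426, and *ATCG00950* had 222, 185 and 309.8, against 1099, 1864 and 887. The chloroplast genome holds an inverted repeat, and how reads were split between its copies is uncertain. Without WT replicate 2 none of the 58 was called, and without WT replicate 3 there were 3, without WT replicate 1 there were 5 and without *35S::AtTOR* replicate 2 there was 1.

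Of 17 members encoded in the mitochondrion, also picked after their values were seen, 3 were called higher (beside 1.31% of all genes tested) and none lower. The median of the 17 was 0.56. Their sum did not separate the groups, at 0.00578, 0.00708 and 0.00886% of the total in *35S::AtTOR*, against 0.00748, 0.0101 and 0.00716% in WT. *ATMG00690* had 9.03, 14.2 and 16 in *35S::AtTOR*, against 1.74, 3.5 and 4.22 in WT, *ATMG00110* had 11, 19.2 and 17.8, against 7.84, 2.34 and 6.75, and *ATMG00160* had 8.03, 15 and 16.9, against 6.1, 3.5 and 4.22.

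Several lists leaned to a side without a call. Of 11 JAZ repressor genes 10 had a log2 difference above 0 (median 0.79), as had 22 of 24 glucosinolate genes (median 0.43), and the 15 auxin response genes had a median of -0.61. Limma called none of these, beside 0, 8 and 10 genes at an unadjusted p under 0.05. EdgeR and DESeq2 each called 1 glucosinolate gene higher, and DESeq2 called 1 auxin gene lower.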
